A study of Homo sapiens with 6 samples.

Results

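The olfactory receptor genes of subfamilies OR51, OR52 and OR56, together with MMP26, were compared between H69 and H69M, both labelled as human small cell lung cancer (SCLC) cell lines. The members were all genes whose platform symbol starts with OR51, OR52 or OR56, plus MMP26, each read by the single-symbol probe set with the highest mean. They numbered 56 of 18404 genes: 22 OR51, 27 OR52 and 6 OR56 genes and MMP26. All 56 lie on chromosome 11 in the reference gene table (assembly GRCh38.p14), where 3 of them, OR52B3P, OR52K3P and OR52A4P, are pseudogenes. The protein-coding genes OR51C1, OR52E5 and OR56B2 of the same subfamilies are not analysed here.

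Expression was deposited as log2 values per probe set from Affymetrix whole-transcript arrays hybridised with total RNA, 3 for each line. H69 is a neuroendocrine SCLC line whose cells float in clumps. No treatment is named in the labels, which are also silent on the origin of H69M and on whether the replicates came from separate cultures, so the errors may be technical only. The set was chosen by symbol and by mean level per probe set, and it was proposed with H69M against H69 results of these data known. Its differences, standard errors (SE, from the limma fit over all genes) and counts are therefore given as a description, with no test read from them.

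Olfactory receptors are G protein-coupled receptors, each usually encoded by a short coding exon. In a sensory neuron of the nose 1 receptor gene is active, and the receptor signals through the G protein subunit encoded by GNAL, adenylyl cyclase and a cyclic nucleotide-gated channel. The OR51, OR52 and OR56 genes are class I receptors, the type shared with fish, and in the human genome they sit in a cluster on the short arm of chromosome 11 that also holds the beta-globin genes and MMP26. OR51E2 (also called PSGR) and OR51E1 (PSGR2) are known for expression outside the nose, above all in prostate, and OR51E1 also in neuroendocrine tumours. MMP26 encodes matrilysin-2, a small secreted metalloproteinase that lacks the hemopexin domain.

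Most members were dim in both lines, and a stretch near the start of the cluster stood out from the rest. The median level over the 56 members was 4.50 in H69 and 4.40 in H69M on the log2 scale, against 7.12 and 7.20 over all genes. The median member lay at percentile 11.9 of mean level, and OR51E2 was the 1 member above the median of all genes. The deposited values carry no detection call, so a dim value may be background. The 8 members lower in H69M by at least 0.5 in log2 were, in order along the cluster, OR51E1, OR51E2, MMP26, OR51F2, OR51T1, OR51A7, OR51L1 and OR52J3. The other 48 members had differences from -0.32 to 0.26.

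The 250 bases before the annotated start are shown for OR51E1, MMP26, OR51F2 and OR51T1, the members with the largest differences that the RefSeq promoter table (GRCh38.p14) lists. All 4 are on the plus strand, at chr11:4643732-4643981, chr11:4704534-4704783, chr11:4821071-4821320 and chr11:4881650-4881899. Capitals mark matches, on either strand and at any overlap, to the TATA box core TATAAA, the E-box CAGCTG, the homeodomain core TAATTA and the EBF-type core CCCNNGGG.
OR51E1: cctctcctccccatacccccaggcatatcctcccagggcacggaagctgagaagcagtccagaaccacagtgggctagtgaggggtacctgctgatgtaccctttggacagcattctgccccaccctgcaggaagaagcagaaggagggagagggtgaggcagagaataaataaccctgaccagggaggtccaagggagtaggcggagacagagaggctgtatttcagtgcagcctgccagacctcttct
MMP26: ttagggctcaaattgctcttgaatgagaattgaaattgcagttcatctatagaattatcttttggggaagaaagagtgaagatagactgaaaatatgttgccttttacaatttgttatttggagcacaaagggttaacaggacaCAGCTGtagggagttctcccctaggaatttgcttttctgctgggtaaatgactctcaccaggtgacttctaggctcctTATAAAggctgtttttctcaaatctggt
OR51F2: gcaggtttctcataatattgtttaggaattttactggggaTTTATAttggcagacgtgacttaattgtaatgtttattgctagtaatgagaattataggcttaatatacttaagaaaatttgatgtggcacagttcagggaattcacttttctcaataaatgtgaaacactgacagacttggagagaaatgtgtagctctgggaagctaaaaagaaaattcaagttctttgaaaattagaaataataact
OR51T1: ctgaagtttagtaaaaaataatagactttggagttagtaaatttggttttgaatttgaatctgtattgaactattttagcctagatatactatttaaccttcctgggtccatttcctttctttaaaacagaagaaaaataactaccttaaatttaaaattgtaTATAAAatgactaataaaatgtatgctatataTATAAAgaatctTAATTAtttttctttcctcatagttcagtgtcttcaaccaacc
The windows are unlike each other in base composition, with 57.6% G and C in OR51E1, 38.8% in MMP26, 31.2% in OR51F2 and 25.2% in OR51T1. The OR51E1 window held none of these letters, MMP26 held CAGCTG and TATAAA, OR51F2 held TATAAA on the minus strand, and OR51T1 held 2 TATAAA matches and TAATTA. For many receptor genes the annotated start is that of the coding exon, so the window need not be the promoter in use.

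Across the 38 members in the promoter table, 16 windows (42.1%) held TATAAA, against 11.1% of the 27305 windows of all genes and 31.6% of the 275 windows of other olfactory receptor genes. TAATTA was found in 6 member windows (15.8%), against 4.49% of all windows and 21.5% of those of other receptors. CAGCTG was found in 5 (13.2%), against 13.8% and 6.54%, and CCCNNGGG in 3, against 16.6% and 8% of the windows. The member windows were poor in G and C, with a median of 39.8% against 58% over all genes and 36.8% over other receptors. Among the 7 listed windows of the 8 members lower by at least 0.5, TATAAA was present in 4 and CAGCTG in 2. These matches describe the letters in the windows and say nothing of which factor binds there.

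OR51E2 and OR51E1, neighbouring receptor genes at the start of the stretch, were both lower in H69M. OR51E2 (probe set 7945991) read 9.67, 9.59 and 9.77 on the H69 arrays and 6.90, 6.92 and 7.01 on the H69M arrays. It was the brightest member in either line, at percentile 88.1 of all genes in H69 and 46.0 in H69M, and its H69M arrays all lay below its H69 arrays. The difference was -2.73 ± 0.069 (log2, SE), or 6.65-fold lower in H69M. OR51E1 (7937952) read 6.67, 6.48 and 7.27 in H69 and 4.62, 4.72 and 5.0 in H69M. Its mean went from 6.81 ± 0.41 to 4.78 ± 0.20 (SD, n = 3), which made it 4.07-fold lower, again with no overlap. OR51D1, the neighbour of OR51E1 on the other side, was at 4.24 ± 0.16 in H69 and 3.99 ± 0.16 in H69M (SD, n = 3), a difference of -0.24.

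MMP26, the metalloproteinase gene next in order, was lower by 1.61 ± 0.18 (log2, SE), or 3.05-fold. Its probe set (7937961) read 5.79, 5.65 and 6.16 in H69 and 4.60, 3.95 and 4.22 in H69M. The H69M arrays were spread over a wider range here than for OR51E2, yet each lay below every H69 array. In H69 it lay at percentile 30.6 of all genes and in H69M at percentile 10.1.

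OR51F2 and OR51T1, receptor genes inside the annotated span of MMP26, had differences as large as that of OR51E2. OR51F2 (7937973) read 7.72, 7.48 and 8.12 in H69 and 5.20, 4.86 and 5.02 in H69M. Its difference of -2.75 ± 0.16 (log2, SE) was the largest of the 56 and made it 6.71-fold lower. OR51T1 (7937979) read 7.40, 6.99 and 7.69 in H69 and 4.63, 4.74 and 4.68 in H69M, a difference of -2.68 ± 0.16 or 6.39-fold. In H69M both stood at a level like that of most members, at percentiles 18.2 and 14.3 of all genes, whereas in H69 they were above the median of all genes (percentiles 60.3 and 53.7). OR51A7 (7937982), also inside the span, was dim throughout: 3.98, 3.80 and 4.74 in H69 and 3.20, 3.14 and 3.51 in H69M. Its difference of -0.89 ± 0.23 (log2, SE) was -0.60 without H69 replicate 3, the highest array.

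**Figure D1:**
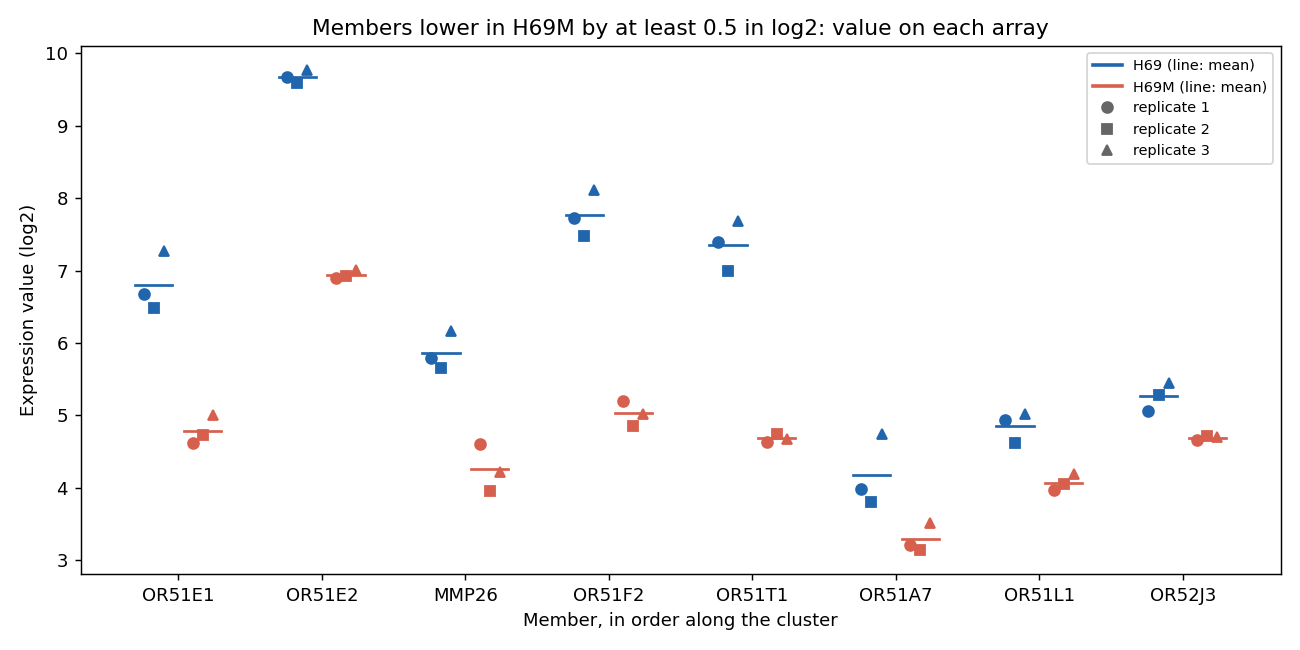
Value of each of the 8 members lower by at least 0.5 on each array (log2, vertical axis; members in order along the cluster, horizontal axis), with circles, squares and triangles for replicates 1, 2 and 3 and a line at the mean of each line's 3 arrays. Every H69M array lies below every H69 array for each gene, and the H69 triangle (replicate 3) is the highest of the H69 arrays in all 8.

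OR51L1 and OR52J3, named after their values were seen, were the next lower members past the end of the MMP26 span. OR51L1 (7937984) read 4.94, 4.61 and 5.02 in H69 and 3.96, 4.05 and 4.19 in H69M, a difference of -0.79 ± 0.11 (log2, SE). OR52J3 (7937986) read 5.06, 5.28 and 5.45 in H69 and 4.66, 4.71 and 4.70 in H69M, a difference of -0.58 ± 0.097. The arrays of the lines were apart for both, at levels below the 25th percentile in each line. The next member, OR52E2, was at -0.31 ± 0.074, and beyond it the differences lay between -0.32 and 0.16.

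The 8 lower members lay among 15 consecutive members, and those of the 8 with a listed strand were all on the plus strand. In the RefSeq annotation 10 members lie within the span of MMP26, which is itself on the plus strand. Of these, the 3 listed on the plus strand were OR51F2, OR51T1 and OR51A7, with differences of -2.75, -2.68 and -0.89. The 6 listed on the minus strand, OR51F1, OR52R1, OR51S1, OR51G2, OR51G1 and OR51A4, had differences from -0.27 to 0.13, although they lie between the former. OR51A2, whose strand is not listed, was at 0.26. Over the whole stretch from OR51E1 to OR52J3, 7 of 7 members listed on the plus strand were lower by at least 0.5, and 0 of 6 on the minus strand. OR51E2 and OR51A2 are the 2 members of the stretch with no listed strand. Their probe set numbers, 7945991 and 7946017, fall within the range of the listed minus-strand members, 7945958 to 7946125. Members listed on the plus strand run from 7937938 to 7938076. By that numbering OR51E2, at -2.73, would be a lower member on the minus strand, so the split may not hold for it. The stretch was drawn from these values, so the split by listed strand is a description with no test.

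**Figure D2:**
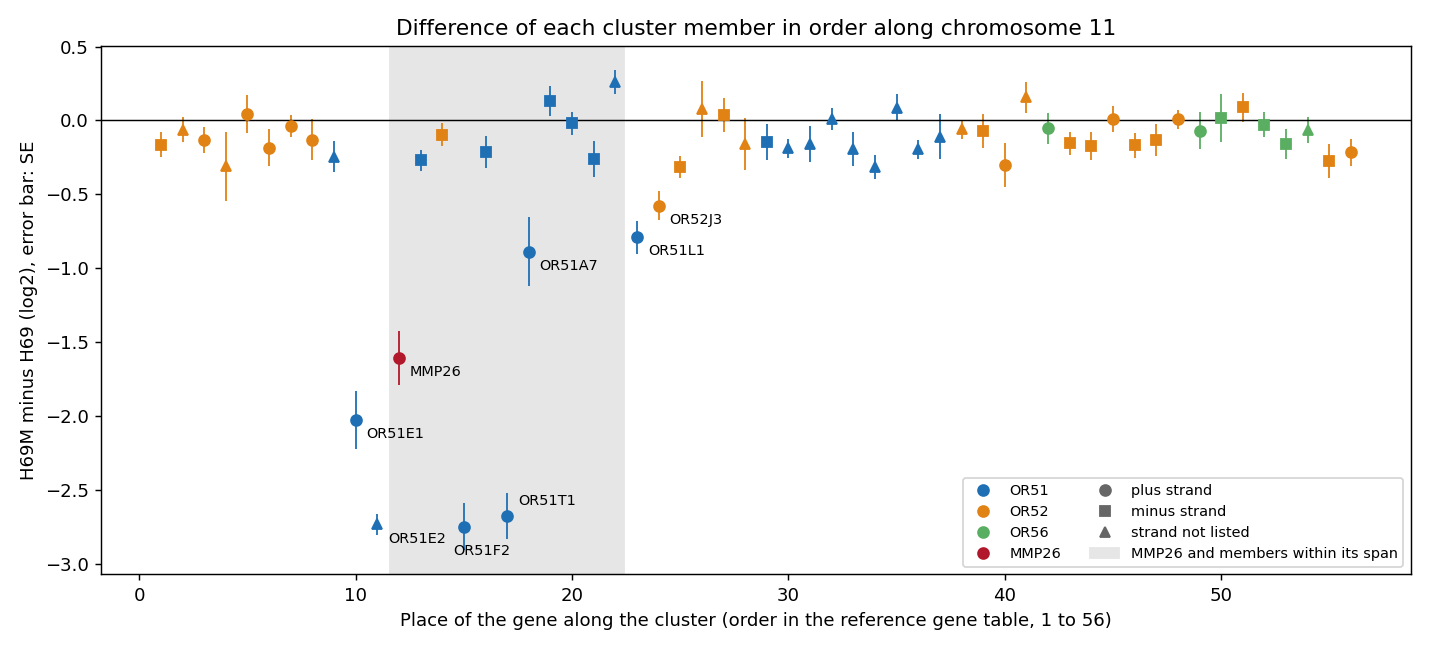
Difference between H69M and H69 (log2, vertical axis, bars: SE) of the 56 members by place along the cluster (horizontal axis), coloured by subfamily, with circles for the plus strand, squares for the minus strand and triangles where no strand is listed. The 8 labelled members lie between places 10 and 24, and the squares among them stay between -0.27 and 0.13; the grey band covers MMP26 and the members within its span.

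Among members listed on the minus strand OR51S1 was the brightest. OR51E2, with no listed strand, was brighter still and was lower in H69M. OR51S1 lies between OR51F2 and OR51T1. It read 6.17, 6.14 and 6.08 in H69 and 5.78, 5.80 and 6.18 in H69M, so that 1 H69M array was higher than every H69 array. Its difference was -0.21 ± 0.11 (log2, SE). The other 5 members listed on the minus strand within the span had H69 means between 4.13 and 5.11, near the level of most members. The labels name a sense-target labelling, which reads a single strand of a locus. Where a receptor gene and MMP26 share a strand and overlap, signal from the receptor transcript and from a longer MMP26 transcript cannot be told apart in these values. Receptor genes also have close copies, and whether probes read more than 1 of them was not tested.

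**Figure D3:**
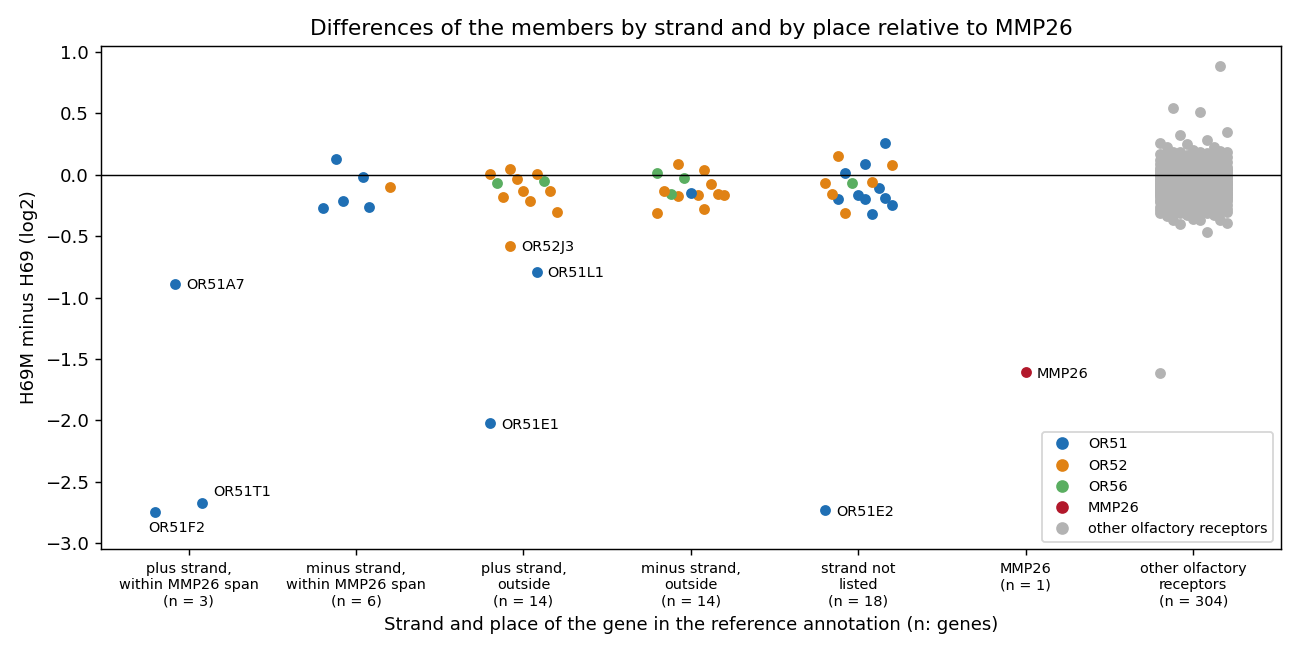
Difference between H69M and H69 (log2, vertical axis) of each member by strand and by place within or outside the annotated span of MMP26, beside the 304 other olfactory receptor genes (horizontal axis, each point a gene). The 3 members listed on the plus strand within the span lie at -0.89 or lower. The 6 listed on the minus strand there lie between -0.27 and 0.13.

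The H69 arrays varied together over the lower members. Replicate 3 was the highest H69 array in 8 of 8 and replicate 2 the lowest in 7 of 8, with OR52J3 as the exception. Among the other 48 members replicate 3 was the highest in 14 (29.2%), and over all genes in 23.2%. Replicate 2 was the lowest in 27.1% of those 48 and in 23.3% of all genes. Bitter taste receptor genes, another family of short genes, had replicate 3 highest in 14 of 24 (58.3%) and replicate 2 lowest in 14. For the 304 other olfactory receptors the shares were 25% and 31.25%. The deviations of replicate 3 from the H69 mean ranged from 0.094 for OR51E2 to 0.57 for OR51A7 (log2), small against the differences between the lines for the 5 members lower by more than 1. The 8 genes share arrays, so these deviations are not independent observations. A smaller number of expressing cells and less RNA per cell cannot be told apart in bulk RNA.

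Outside the stretch the 41 remaining members had a median difference of -0.13, with values from -0.32 to 0.16. The largest rises of the set, all between dim values, were OR51A2 (2.98 ± 0.12 to 3.24 ± 0.097, SD, n = 3), OR52N4 (2.76 ± 0.094 to 2.91 ± 0.19), OR51G2, OR52L1, OR51Q1 and the pseudogene OR52A4P, with differences of 0.26, 0.16, 0.13, 0.088, 0.087 and 0.078. The lines' arrays were apart in OR51A2 and overlapped in the other 5. The differences of OR52L1 and OR52A4P reached below 0 with single arrays left out, at lowest -0.016 and -0.13. The OR52 members had a median of -0.13, with H69 means no higher than 5.55. The 6 OR56 members had differences from -0.16 to 0.014, and their arrays overlapped in all 6. The OR51 members had a median of -0.20 and included 6 of the 8 lower members. The members around the globin genes had small differences, with OR51V1 at -0.15, OR51B4 at -0.19, OR51B2 at -0.16, OR51B5 at 0.012 and OR51B6 at -0.20. The arrays of the lines were apart in OR51B4 and overlapped in the others.

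In the limma fit over all genes, at a Benjamini-Hochberg adjusted p under 0.05, 13 of 56 members were called lower in H69M, beside 23.2% of all genes, and 1 higher, beside 21.0%. The arrays did not overlap in 14 members lower in H69M (30.0% of all genes) and in 1 higher (25.8%). Lower by at least 0.5 were 8 members (9.50% of all genes) and by at least 1 were 5 (2.72%). No member was higher by 0.5 (10.9%). The contrast was in view when the set was proposed, so nothing is read from these counts. The lower calls beside the 8 were OR51F1, OR52E2, OR51B4, OR51M1 and OR51I1, with differences from -0.19 to -0.32. Without H69M replicate 2 the lower calls numbered 8, with OR51A7, OR51B4, OR51F1, OR51I1 and OR51M1 lost, and the higher call of OR51A2 was lost without H69 replicate 1, H69 replicate 3 or H69M replicate 2.

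Differences below 0 were common among dim families in general. They made up 44 of 56 members, 216 of 304 other olfactory receptor genes, 61 of 68 keratin-associated protein genes, 15 of 24 bitter taste receptor genes and 57.0% of all genes. Quantile normalization applied again left 38 members below 0 and moved the median from -0.16 to -0.075, while the 8 lower members still had differences from -0.52 to -2.73. The small negative differences of most members thus depended in part on the scaling, and those of the 8 kept their direction under it.

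**Figure D4:**
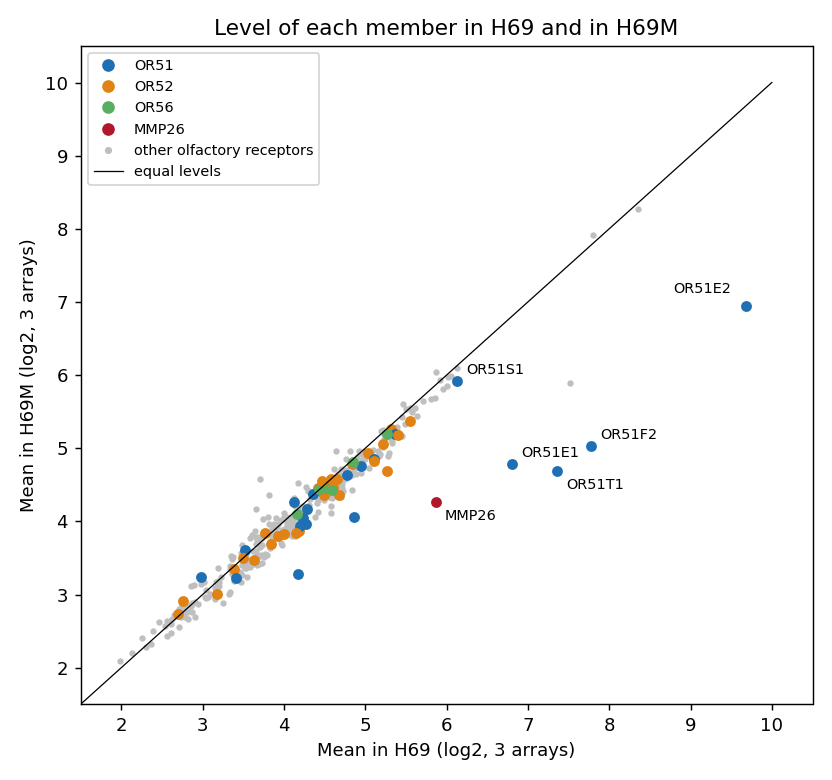
Mean of the 3 H69M arrays (log2, vertical axis) against the mean of the 3 H69 arrays (log2, horizontal axis) for each member, coloured by subfamily, with 304 other olfactory receptor genes in grey and a line of equal levels. OR51E2, OR51F2, OR51T1, OR51E1 and MMP26 lie well below the line, OR51S1 close to it, and most members at levels between 3 and 6 in both lines.

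Olfactory receptor genes elsewhere in the genome had 1 difference of like size. Their median was -0.082, and OR2B6, a receptor gene on chromosome 6, was at 7.51 ± 0.23 in H69 and 5.90 ± 0.11 in H69M (SD, n = 3), a difference of -1.62. Among the 304, 8 had an H69 mean of at least 6, and the brightest, OR2H2 and OR12D3, differed by -0.090 and 0.11. Of the 56 members 5 had an H69 mean of at least 6, and 4 of them, OR51E1, OR51E2, OR51F2 and OR51T1, were lower by more than 2. The cut was made on the H69 mean, which favours genes lower in H69M, so nothing is read from these counts. An H69M mean of at least 6 was reached by 1 member and by 4 of the 304. No test was made between the sets.

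Of the 9 measured non-members between the first and last member, 3 were called higher in H69M and 0 lower. Over all genes 21.0% were called higher and 23.2% lower, so nothing is read from so small a count. The 3 were TRIM21, TRIM5 and TRIM22, ubiquitin ligase genes of antiviral defence, higher by 1.78 ± 0.095, 3.03 ± 0.17 and 2.57 ± 0.21 (log2, SE). They lie outside the stretch of lower members, as do the globin genes HBB, HBD and HBE1, which differed by -0.18, -0.030 and -0.15 with means between 4.26 and 5.47. TRIM68, the last measured non-member before OR51D1, was at 8.44 ± 0.026 and 8.31 ± 0.15 (SD, n = 3). Of the 5 nearest protein-coding genes before the cluster, RRM1, a subunit of ribonucleotide reductase, was called lower, by 0.25. RHOG and STIM1, a calcium sensor of the endoplasmic reticulum, were called higher, by 0.71 and 0.52. Of the 5 after it, CNGA4 and CCKBR were called higher, by 0.78 and 0.69. CAVIN3, a caveolar protein gene, and FHIP1B were called lower, at -0.54 and -0.24.

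Genes that carry olfactory receptor signals were called in both directions, at a share near that of all genes. Of 24 genes of olfactory signalling, receptor traffic and receptor choice, 23 were measured. Of these, 3 passed limma's threshold as higher in H69M and 7 as lower, or 43.5% called beside 44.2% of all genes. Their median difference was -0.052 against -0.041 over all genes. The 3 higher were PDE1C, a cyclic nucleotide phosphodiesterase (5.36 ± 0.12, log2, SE), CNGA4, a channel subunit (0.78 ± 0.16), and the G protein subunit gene GNB1 (0.38 ± 0.055). The lower ones included STOML3 (-1.38 ± 0.19), a membrane protein of sensory neurons, the transcription factor genes EMX2 (-0.98 ± 0.075) and LHX2 (-0.88 ± 0.10), and RIC8B (-0.61 ± 0.060), a chaperone of the olfactory G protein. GNAL was dim in both lines (4.86 and 4.76).

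Cell type markers were read beside these results, with 21.0% of all genes called higher in H69M and 23.2% called lower. Of 8 markers of olfactory sensory neurons 1 was higher and 1 lower, and the median over the markers lay between 5.91 and 6.11 on the H69 arrays and between 5.68 and 5.81 on the H69M arrays. OMP, the defining marker, was at 6.69 ± 0.13 in H69 and 6.72 ± 0.082 in H69M (SD, n = 3), and CNGA2 at 4.63 and 4.58. Of 11 measured neuroendocrine SCLC markers 8 were lower and 0 higher, with per-array medians of 9.88 to 9.94 in H69 and 8.50 to 9.22 in H69M. All 11 mesenchymal markers were higher, with medians of 5.11 to 5.28 in H69 and 9.92 to 10.73 in H69M. Of 6 erythroid markers 0 were called, with 8 of the 10 measured globin and erythroid genes below 0, and of 5 leukocyte markers 3 were lower, with H69 means of 3.95, 4.87 and 6.07. The part of these markers in the members' differences was not tested.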

How the data were processed

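The deposited file holds log2 values per probe set for 3 H69 and 3 H69M arrays, and RMA and limma are named without versions in the submitters' processing notes. Column-extracted RNA was amplified and biotin-labelled as sense target, per the labels' protocols. Which program ran RMA, and on which build, is not given in the sources used here. RMA values flatten towards a floor at low signal, so differences between dim values may be too small.

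The table held 32321 probe sets, of which the platform annotation gave 1 symbol to 19158 and several to 1388. The probe sets with 1 symbol named 18404 genes, the set used here. No member had more than 1 single-symbol probe set. All 56 members matched the reference gene table (GRCh38.p14) by Entrez ID. It was used for their order and for the span of MMP26, and strands came from the RefSeq promoter table, which lists 38 of the members.

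A limma 3.58.1 model (R 4.3.3) with group as its only term was fitted to all genes (two-sided moderated test), with Benjamini-Hochberg adjustment over 18404 genes. The code was tested on simulated data. Python 3.11.15 and matplotlib 3.10.9 were used for sequences and plots. Array medians lay between 6.43 and 6.48, and arrays correlated across genes at 0.995 to 0.998 within a line and 0.938 to 0.950 between lines. Precision is limited by the number of arrays (median SE of a difference 0.075).

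The members and lists were chosen with earlier results of these data known. The members picked by rule were MMP26, the 6 largest falls, the 6 largest rises, the 4 highest levels and any member with several probe sets. Array values are printed for the falls and the highest levels, and only means or differences for the rises. Alternatives were the replicate block, other scalings, filters on dim genes, other eBayes settings, array weights, the mean or the several-symbol probe sets of a gene, and leaving out single arrays.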

Additional observations from a re-analysis of the deposited data

How the results depend on the processing

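Across 16 alternatives, the differences of the 15 members followed by name stayed within the spread between arrays, which most alternatives could not have exceeded. The block, filters, probe set choices and eBayes settings leave these differences unchanged by design. Leaving out 1 of 3 arrays cannot move them past that spread. Only the scalings and the array weights could have. No called member changed sign, but values of OR52A4P and OR52L1, not called, did so 4 times. The 8 members lower by at least 0.5 were all still called lower wherever they were tested, except OR51A7 without H69M replicate 2. The count of members called lower (13) was 4 with genes below the 25th percentile of level left out, where 5 members remained, and 1 with genes below the median left out, where OR51E2 alone remained. With each array left out it ranged from 8 to 15. The 1 member called higher became 0 under both filters and with eBayes trend, and was 0 to 1 with each array left out. The member median of -0.16 became -0.075 with quantile normalization applied again, and -2.68 and -2.73 under the filters, which keep only the brightest members. The median of other olfactory receptors went from -0.082 to -0.0063 with quantile normalization. It was 0.0084 among those above the median level, where only 2 of them remained. With the replicate number as a block, 12 members were called lower and 1 higher. The numbers did not pair the arrays (correlations of the deviations of 0.021, 0.0072 and 0.0099 for numbers 1, 2 and 3). No detection call was used, so a dim value may be background.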
